A study of Mus musculus with 31 samples.

Results

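Mouse embryonic fibroblasts (MEFs) infected with 4 retroviruses, which carried Oct4, Sox2, Klf4 or c-Myc (4F), were set against MEFs given a GFP retrovirus (GFP), both harvested on day 3 after infection on day 0. The comparison holds 4 of the 31 arrays of the series, 2 per infection, taken by title and day alone and paired by replicate number. Beside them stood 1 array of MEFs given Oct4, Sox2 and Klf4 without c-Myc (3F) on day 3, 2 arrays each of 4F and GFP cells on days 1 and 5, and 2 arrays of uninfected MEFs on day 0. All cells were grown in DMEM with foetal bovine serum, and the labels state no strain, sex or embryonic age of the MEFs. GFP cells therefore share the infection and the 3 days of culture with 4F cells, while day 0 cells share neither. The source text of the 3F array counts 4 factors but names Oct4, Sox2 and Klf4, and its title and description were followed. The titles of the day 0 arrays begin with 4F, while their retrovirus entry is none and their other entries name MEFs alone, and they were taken as uninfected on that entry. The titles call the replicates biological, and nothing says that they came from separate embryos or cultures. The p-values thus measure the spread between replicate arrays, which may be technical. That spread was estimated over the 24 arrays with a replicate number, other days included.

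In this type of experiment fibroblasts are turned towards induced pluripotent stem cells. Oct4 (Pou5f1), Sox2 and Klf4 are transcription factors of the pluripotent state, and c-Myc (Myc) is a general activator of growth and ribosome production. As background from earlier work on mouse fibroblasts, the first days after infection are known for loss of mesenchymal gene expression and for gain of proliferation and epithelial genes, while genes of the pluripotency core are known to come on late. An array of a whole culture reports the average over all cells, so fewer cells of a kind and less RNA per cell cannot be told apart, and neither can a uniform change and a change in the infected cells alone.

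Values are log2 signals of Affymetrix whole-transcript arrays, and a difference of 1 is a doubling. The table covers 19938 genes, each read from its row with the highest mean over the 31 arrays. Replicate arrays correlated across genes with Pearson r = 0.989 in 4F cells and 0.986 in GFP cells on day 3, where genes are not independent replicates. Labelling began from 120 ng of RNA for replicate 1 and from 300 ng for replicate 2 and the 3F array. Because each pair shares its amount, the replicate number was a term of the limma fit. A gene was called where its Benjamini-Hochberg adjusted p over all rows with 1 symbol was under 0.05. Only 2 arrays stand in each group, which limits the precision of every value. Fibroblast signal was read from 14 marker genes, all of them also members of the collagen, proteoglycan or mesenchymal lists below. Their mean log2 signal was 9.78 and 9.75 on the 4F arrays (replicates 1 and 2), against 11.36 and 11.29 on the GFP arrays.

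None of the 4 delivered factors passed the test on day 3 (limma; 1 higher and 1 lower at an unadjusted p under 0.05, 0 without the replicate term). In the fit of the compared arrays alone and in that of days 0 to 5 alone, Pou5f1 and Sox2 passed as higher and Myc as lower. Pou5f1 had 6.05 and 6.38 in 4F cells, against 5.22 and 5.41 in GFP cells, and the 3F array had 6.36. Sox2 had 5.95 and 6.24 in 4F cells, against 5.57 and 5.56 in GFP cells. The 4F arrays lay above the GFP arrays for both genes, as in 4475 of all 19938 genes. The differences were 0.89 ± 0.38 (SE) for Pou5f1 (limma, adjusted p = 0.12) and 0.53 ± 0.26 for Sox2 (adjusted p = 0.19), and neither passed the test. Klf4 had 7.40 and 7.15 in 4F cells, against 7.67 and 7.98 in GFP cells, with a difference of -0.55 ± 0.26 (adjusted p = 0.16). Myc had 6.81 and 8.12 in 4F cells, against 7.75 and 9.58 in GFP cells and 9.70 and 9.58 in day 0 cells. The Myc arrays of replicate 1 lay below those of replicate 2 in both infections, and the difference of -1.20 ± 0.48 did not pass (adjusted p = 0.10). Against day 0, Myc fell by 2.17 in 4F cells (adjusted p = 0.0075), and GFP cells differed from day 0 by -0.97 (adjusted p = 0.32). The labels do not say which parts of these transcripts the probes and the viruses carry, so these values do not measure the delivered copies and give no check of the labels.

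Over all genes, 3728 of 19938 (18.7%) were called between 4F and GFP cells on day 3. Of these, 1947 were higher (9.77% of genes) and 1781 lower (8.93%) in 4F cells. Without the replicate term 2365 genes were called, all of them also called with it. Differences were mostly below a doubling: 322 genes (1.62%) were called with at least 2 times and 53 with at least 4 times the GFP level, and 431 (2.16%) and 75 were called lower by at least 2 and 4 times. At 8 times, the rises outnumbered the falls, with 16 and 6 genes. The median difference was -0.03 over all genes, 0.59 over the genes called higher and -0.63 over those called lower. Counted over rows, 4051 were called (18.6%), and leaving out single arrays gave 2111 rows without 4F replicate 1, 2641 without 4F replicate 2, 1921 without GFP replicate 1 and 4150 without GFP replicate 2. The plot of difference against mean signal shows that calls of both signs ran through most of the range of signal.

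**Figure D1:**
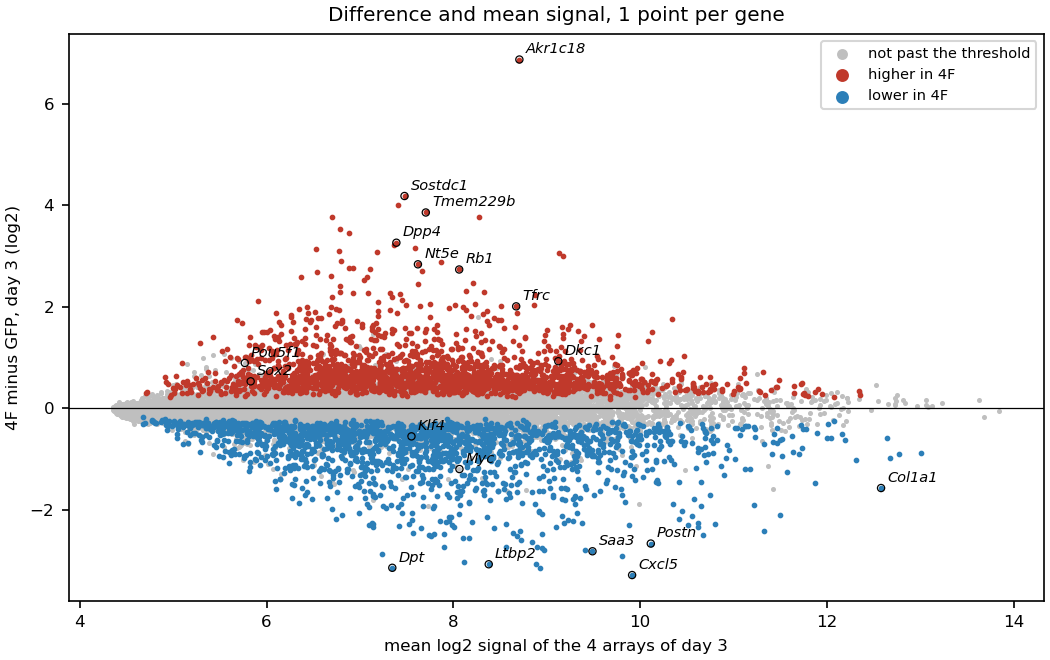
Difference between 4F and GFP cells on day 3 (vertical axis, log2) against the mean log2 signal of the 4 arrays (horizontal axis), 1 point per gene, with called genes coloured by direction and selected genes named. Akr1c18 stands alone at 6.88, and Cxcl5, Dpt and Ltbp2 lie between -3.29 and -3.08.

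The largest rise was that of Akr1c18, a steroid-metabolising aldo-keto reductase that inactivates progesterone. It had 11.79 and 12.50 in 4F cells and 12.47 on the 3F array, against 5.15 and 5.38 in GFP cells and 5.42 on both day 0 arrays. The 4F arrays were thus in the upper part of the scale where GFP cells were near its floor, a difference of 6.88 ± 0.31 (limma, adjusted p = 1.8e-08). Sostdc1, a secreted antagonist of BMP and Wnt signals, had 8.89 and 10.25 in 4F cells, against 5.34 and 5.43 in GFP cells (difference 4.19 ± 0.51, adjusted p = 7.3e-05). Necab1, a neuronal calcium-binding protein, had 9.61 and 9.22 in 4F cells, against 5.31 and 5.49 in GFP cells. Tmem229b, a membrane protein, had 9.40 and 9.87 in 4F cells, against 5.90 and 5.65 in GFP cells. In all 4 genes the GFP arrays lay close together while both 4F arrays were far above them. The next rises were those of Bex1, a gene known from neurons, by 3.78 ± 0.31, Sbspon, a secreted matrix protein, by 3.77 ± 0.28, and Hbb-y, the embryonic beta-like globin, by 3.53 ± 0.24. Hbb-y had 8.83 and 8.28 in 4F cells and 8.53 on the 3F array, against 5.02 and 5.03 in GFP cells. Gna14, a G protein alpha subunit, rose by 3.46, Dpp4, a surface peptidase, by 3.26, Aldh3a1, an aldehyde dehydrogenase, by 3.22, Fmo1, a flavin monooxygenase, by 3.16 and Anxa10, an annexin, by 3.14. The 4F replicates of the last pair disagreed, with 10.11 and 8.22 for Fmo1 and 7.04 and 9.17 for Anxa10.

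**Figure D2:**
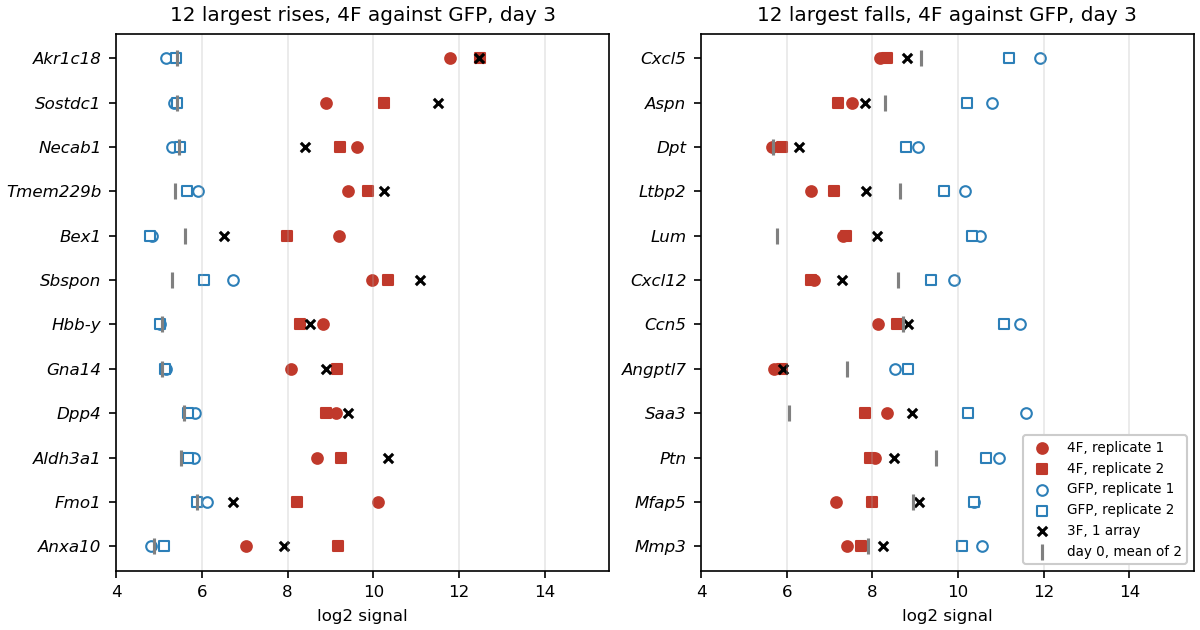
Log2 signal (horizontal axis) of the 12 genes with the largest rise and the 12 with the largest fall on day 3, 1 point per array for 4F, 3F and GFP and a tick at the mean of the 2 day 0 arrays. In every one of these genes both 4F arrays lie on the same side of both GFP arrays. Of all 19938 genes, 4475 have both 4F arrays above and 5756 have both below the GFP arrays. The 3F array lies beside the 4F arrays in most of the genes shown.

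The largest falls were in secreted proteins. Cxcl5, a neutrophil-attracting chemokine, had 8.19 and 8.35 in 4F cells, against 11.92 and 11.20 in GFP cells and 9.23 and 9.03 on day 0. The difference of -3.29 ± 0.41 (limma, adjusted p = 8.6e-05) thus lay between a 4F arm at -0.86 ± 0.41 from day 0, which did not pass (limma, adjusted p = 0.21), and a GFP arm at 2.43 ± 0.41 (adjusted p = 0.0077). Dpt (dermatopontin, a collagen-binding matrix protein) had 5.65 and 5.89 in 4F cells, against 9.06 and 8.77 in GFP cells and 5.47 and 5.89 on day 0. Lum (lumican, a collagen-binding proteoglycan) had 7.32 and 7.38 in 4F cells, against 10.50 and 10.33 in GFP cells and 5.82 and 5.72 on day 0. For both genes the GFP arrays had left the day 0 level further than the 4F arrays. Ltbp2, a latent TGF-beta binding protein, differed in this respect, with 6.58 and 7.10 in 4F cells, against 10.15 and 9.68 in GFP cells and 8.68 and 8.59 on day 0, so that the arms stood on opposite sides of the start. The other falls among the 12 were -3.15 for Aspn, another small proteoglycan, -3.04 for Cxcl12, a chemokine of stromal cells, -2.90 for Ccn5, a matricellular protein, and -2.88 for Angptl7, an angiopoietin-like protein. They ended with -2.82 for Saa3, an acute-phase protein, -2.80 for Ptn, a heparin-binding growth factor, -2.79 for Mfap5, a microfibril protein, and -2.75 for Mmp3 (stromelysin), a matrix protease. The Mmp3 call ended without 4F replicate 1 (adjusted p = 0.11) and without GFP replicate 1 (adjusted p = 0.082).

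Gene groups were then read against the shares of all genes called, 9.77% higher and 8.93% lower. For the structural collagens, 15 of 20 measured genes were lower in 4F cells and 0 higher, with a median difference of -1.28 against -0.03 over all genes (limma; 0 higher also at an unadjusted p under 0.05 and without the replicate term). The list's mean signal was 8.79 and 8.57 on the 4F arrays, against 10.13 and 9.47 on the GFP arrays. Its median was -1.59 in pair 1 and -0.83 in pair 2, and 9 members were lower without GFP replicate 1. Col1a1, a chain of the main fibroblast collagen, had 11.69 and 11.90 in 4F cells, against 13.56 and 13.18 in GFP cells (difference -1.57 ± 0.24, adjusted p = 0.00046). Further falls were -2.13 for Col12a1, -2.07 for Col5a1, -2.02 for Col5a2 and -1.55 for Col6a3. Col11a1 and Col4a2 did not pass, with -0.57 (adjusted p = 0.29) and -0.42 (adjusted p = 0.16).

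The enzymes that modify and cross-link collagen followed the same direction, with 12 of 18 measured genes lower and 1 higher (median -0.92). Lox, the cross-linking lysyl oxidase, had 10.01 and 10.23 in 4F cells, against 12.56 and 12.51 in GFP cells (difference -2.41 ± 0.35, adjusted p = 0.00028). Loxl1 fell by 2.13 and Loxl3 by 1.74, and the prolyl hydroxylases P4ha2 and P4ha3 fell by 1.78 and 1.74. Pcolce2, an enhancer of procollagen processing, was the only member higher: it had 8.95 and 9.75 in 4F cells and 10.24 on the 3F array, against 6.92 and 8.30 in GFP cells, a rise of 1.74 ± 0.30 (adjusted p = 0.0011). Its relative Pcolce differed by -0.33 (adjusted p = 0.23). Among proteoglycans and matrix glycoproteins 26 of 38 measured genes were lower and 0 higher (median -1.22; 2 higher at an unadjusted p under 0.05, 0 without the replicate term). Beside the genes already named, Postn (periostin) had 8.94 and 8.62 in 4F cells, against 11.66 and 11.24 in GFP cells. Dcn (decorin) had 9.46 and 9.86 in 4F cells, against 11.93 and 11.96 in GFP cells and 8.89 and 9.01 on day 0. Postn in 4F cells was below its day 0 arrays of 9.72 and 9.91, whereas Dcn in 4F cells was above its own. Fbn2, a fibrillin of embryonic microfibrils, lay the other way, with 10.35 and 9.93 in 4F cells, against 9.86 and 8.75 in GFP cells, but its 0.84 did not pass (adjusted p = 0.15).

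Of the matrix proteases and their inhibitors, 14 of 19 were lower and 0 higher (median -1.46; 0 higher at an unadjusted p under 0.05 and without the replicate term). The count of lower genes was 7 without 4F replicate 1 and 8 without GFP replicate 1. Plat, tissue plasminogen activator, had 6.48 on both 4F arrays, against 8.85 and 8.82 in GFP cells (difference -2.35 ± 0.27, adjusted p = 5e-05). Mmp9, a gelatinase, had 5.65 and 5.64 in 4F cells, against 8.66 and 7.0 in GFP cells, and Mmp19 fell by 1.95. Mmp13, a collagenase, fell by 2.41, a call that ended without 4F replicate 1 (adjusted p = 0.06) and without GFP replicate 1 (adjusted p = 0.092). Plaur, the urokinase receptor, differed by -1.37 (adjusted p = 0.056) and Adamts1 by -0.75 (adjusted p = 0.082). Proteases and inhibitors of proteases fell together in this list: Timp2 and Timp3, inhibitors named after their values were seen, fell by 1.18 and 1.46.

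The AP-1 motif TGANTCA, the binding sequence of Fos and Jun family factors, was looked up on both strands in promoter windows from RefSeq (GRCm38.p6), each running from 250 bases before to 50 bases after the gene's start. It stood in 4 of the 12 protease and inhibitor genes with a window (33.3%), against 8.08% of all 15614 measured genes with a window and 8.33% of genes called lower with one. This motif is 1 of 10 that were counted. The same motif stood in 7 of 26 windows of the chemokine list and 7 of 26 of the interferon list (26.9% each), of which 19 of 36 and 0 of 34 measured genes were lower. The promoters of Mmp3 (chr9:7445572-7445871, plus strand) and Mmp13 (chr9:7272264-7272563, plus strand) are shown. They had the largest falls among the called genes of the list that hold the motif. It stands at -46 and -35 counted from the start. Capitals mark the motif, which is a match of letters and not a measured site.
Mmp3: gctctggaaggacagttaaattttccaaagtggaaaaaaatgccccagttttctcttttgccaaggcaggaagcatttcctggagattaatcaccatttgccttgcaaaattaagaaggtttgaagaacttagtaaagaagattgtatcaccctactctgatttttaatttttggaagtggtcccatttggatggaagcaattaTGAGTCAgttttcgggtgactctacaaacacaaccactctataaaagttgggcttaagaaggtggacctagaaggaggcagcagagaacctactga
Mmp13: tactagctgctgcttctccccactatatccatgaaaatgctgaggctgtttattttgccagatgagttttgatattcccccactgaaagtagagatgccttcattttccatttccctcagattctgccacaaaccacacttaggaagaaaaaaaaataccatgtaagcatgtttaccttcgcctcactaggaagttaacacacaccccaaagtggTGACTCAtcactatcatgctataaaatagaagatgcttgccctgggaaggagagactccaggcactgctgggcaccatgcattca
Of the AP-1 and other immediate early genes themselves, 1 of 21 was lower (4.76%, against 8.93% of all genes) and 0 higher in limma (1 higher and 3 lower at an unadjusted p under 0.05; 5 lower with the compared arrays alone and 4 with days 0 to 5 alone). That gene was Fosl2, a Fos family member, which had 7.92 and 8.18 in 4F cells, against 9.02 and 8.93 in GFP cells (difference -0.92 ± 0.21, adjusted p = 0.0063). The Fosl2 call ended without 4F replicate 1 (adjusted p = 0.076) and without GFP replicate 1 (adjusted p = 0.065).

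**Figure D3:**
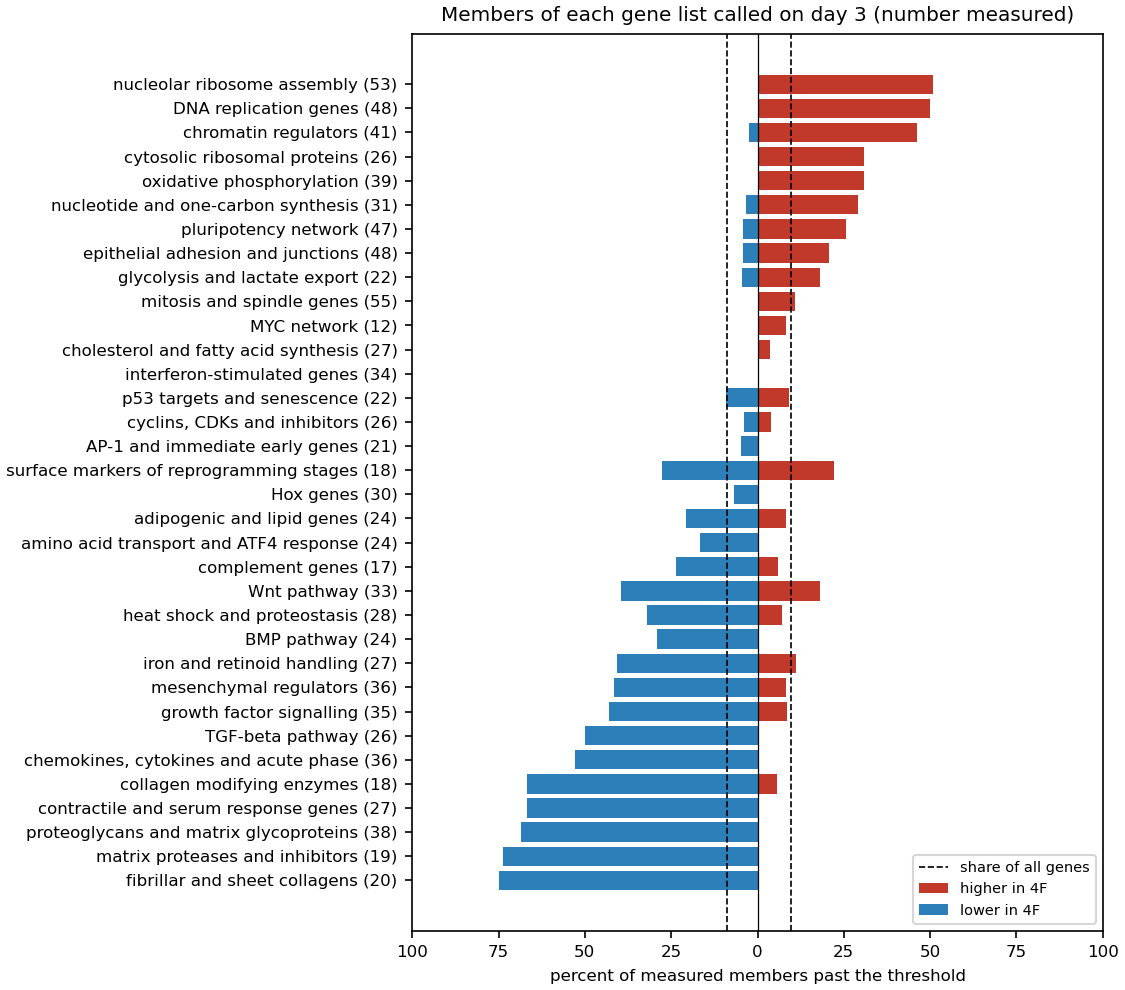
Share of measured members called higher and lower in 4F cells on day 3 for the pathway and process lists (horizontal axis, percent), with vertical lines at the shares over all genes, 9.77% higher and 8.93% lower. Matrix, protease, contractile and chemokine lists lie to the lower side, with 75.0% of collagens lower, and replication and nucleolar lists to the higher side, with 50% and 50.9% higher.

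Mesenchymal regulators lay to the lower side. Of 36 measured, 15 were lower (41.7%, against 8.93% of all genes) and 3 higher (8.33%, against 9.77%), with a median of -0.37. The count of lower genes was 10 without 4F replicate 1, without 4F replicate 2 or without GFP replicate 2. Thy1, a fibroblast surface glycoprotein lost early in reprogramming, had 7.67 and 8.19 in 4F cells, against 9.45 and 10.18 in GFP cells (difference -1.88 ± 0.20, adjusted p = 2.2e-05). Twist2, a mesenchymal transcription factor, had 7.90 and 7.84 in 4F cells, against 9.27 and 9.48 in GFP cells. Snai1, a repressor of epithelial genes, had 6.97 and 7.18 in 4F cells, against 8.20 and 8.73 in GFP cells, and the PDGF receptor Pdgfrb fell by 1.78. Each of these 4 genes had both 4F arrays below both GFP arrays, as did 5756 of all 19938 genes. Pdgfra fell by 2.21, and its call ended without 4F replicate 2 (adjusted p = 0.1) and without GFP replicate 1 (adjusted p = 0.092). The surface nucleotidase Nt5e (CD73) went the other way, with 9.41 and 8.67 in 4F cells, against 6.54 and 5.87 in GFP cells (difference 2.84 ± 0.28, adjusted p = 1.6e-05). Meox2, a homeobox factor of mesoderm, had 9.22 and 9.36 in 4F cells, against 7.42 and 6.54 in GFP cells, a rise of 2.31 ± 0.37. Prrx1, a limb mesenchyme factor, differed by -0.38 (adjusted p = 0.078), and Vim (vimentin), named after its value was seen, by 0.05 (adjusted p = 0.65).

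Contractile and serum response genes comprised 18 lower and 0 higher of 27 measured (median -0.98; 0 higher at an unadjusted p under 0.05 and without the replicate term). This count rests on single arrays more than that of the collagens: 8 were lower without 4F replicate 1, 9 without GFP replicate 1 and 12 without GFP replicate 2, when 1 member was higher. Cnn1 (calponin) had 6.19 and 7.60 in 4F cells, against 8.91 and 9.97 in GFP cells (difference -2.55 ± 0.46, adjusted p = 0.0015). Tpm2 (beta-tropomyosin) had 7.95 and 8.88 in 4F cells, against 9.85 and 10.17 in GFP cells, a fall of 1.59 ± 0.28. In both genes replicate 1 was the lower array of each infection. The falls of Myl9 (myosin light chain, -1.79), Tagln (transgelin, -1.91) and Ankrd1 (-2.14) lost their calls without the replicate term (adjusted p = 0.056, 0.075 and 0.13) and without any 1 of the 4 arrays, as without 4F replicate 1 (adjusted p = 0.18, 0.32 and 0.24). The matricellular genes Ccn1 and Ccn2 differed by -1.13 (adjusted p = 0.19) and -1.59 (adjusted p = 0.28).

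The CArG box, the sequence bound by serum response factor, stood in 5 of the 22 windows of the contractile list (22.7%), against 1.63% of all windows and 2.37% of those of genes called lower. The list was written to hold serum response genes. The box also stood in 2 of 11 windows of the skeletal muscle markers (18.2%), of which 1 of 12 measured genes was lower. The promoter of Myl9 (chr2:156775214-156775513, plus strand) is shown as an example among the lower genes of the list that hold 1 match, at -161 from the start and in capitals.
Myl9: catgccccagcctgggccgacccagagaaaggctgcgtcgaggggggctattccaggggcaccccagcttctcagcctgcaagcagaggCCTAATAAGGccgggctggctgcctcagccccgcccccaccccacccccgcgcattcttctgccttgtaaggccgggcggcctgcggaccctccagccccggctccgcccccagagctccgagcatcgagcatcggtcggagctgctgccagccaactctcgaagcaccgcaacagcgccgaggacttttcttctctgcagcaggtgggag

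In the TGF-beta pathway 13 of 26 genes were lower and 0 higher (median -0.56; 0 higher at an unadjusted p under 0.05 and without the replicate term), and 7 were lower without 4F replicate 1. The ligand Tgfb3 had 7.79 and 8.31 in 4F cells, against 10.00 and 10.65 in GFP cells (difference -2.27 ± 0.34, adjusted p = 0.00037). The co-receptor Tgfbr3 fell by 1.63, the feedback inhibitor Pmepa1 by 1.60 and the activin subunit Inhbb by 1.52. Smad7, another feedback inhibitor, differed by -0.65 (adjusted p = 0.2). In the BMP pathway 7 of 24 were lower and 0 higher (2 higher at an unadjusted p under 0.05, 0 without the replicate term), with 3 lower without 4F replicate 1 and 4 without GFP replicate 1 or 2. Bmp4, a BMP ligand, had 6.74 and 7.18 in 4F cells, against 8.54 and 8.56 in GFP cells, the receptor Bmpr1b fell by 1.18, and Id3, a target of BMP signals, differed by -0.84 (adjusted p = 0.17).

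The Wnt list moved both ways, with 13 of 33 lower and 6 higher. Among the lower genes, the secreted Dkk3 had 6.67 and 7.0 in 4F cells, against 9.07 and 9.19 in GFP cells (difference -2.30 ± 0.19, adjusted p = 3e-06). The secreted activator Rspo2 fell by 2.10, the receptor Fzd1 by 1.63 and the matricellular Ccn4 by 2.23. Among the higher genes were transcription factors and targets of beta-catenin: Lef1 had 6.93 and 6.82 in 4F cells, against 6.08 and 5.92 in GFP cells (difference 0.87 ± 0.06, adjusted p = 9.6e-07), and Axin2 rose by 0.52. The ligand Wnt2 rose by 1.17, and the secreted Sfrp4 had 9.27 and 8.43 in 4F cells, against 6.5 and 6.30 in GFP cells. Of 35 growth factor genes 15 were lower and 3 higher (median -0.61). Igf2, an insulin-like growth factor of the embryo, had 9.49 and 9.37 in 4F cells, against 12.16 and 11.68 in GFP cells (difference -2.49 ± 0.25, adjusted p = 1.8e-05). Gas6, a ligand of the Axl receptor family, changed by -2.63, Fgf7 by -2.34 and the binding proteins Igfbp7 and Igfbp2 by -2.33 and -2.07. Met, the receptor of hepatocyte growth factor, had 8.52 and 9.0 in 4F cells, against 7.13 and 7.47 in GFP cells (difference 1.47 ± 0.17, adjusted p = 4.9e-05), and Fgf18 rose by 0.91. Hbegf differed by -1.93 (adjusted p = 0.058).

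Chemokines, cytokines and acute-phase genes comprised 19 lower and 0 higher of 36 measured (median -0.90; 0 higher at an unadjusted p under 0.05 and without the replicate term), and 12 were lower without 4F replicate 1 and 10 without GFP replicate 1. Saa3 had 8.33 and 7.83 in 4F cells, against 11.58 and 10.22 in GFP cells and 6.11 and 6.00 on day 0. Serpina3n, an acute-phase protease inhibitor, had 6.41 and 7.22 in 4F cells, against 9.25 and 9.51 in GFP cells and 5.75 and 5.97 on day 0. Ccl20, a chemokine, had 5.72 and 6.18 in 4F cells, against 8.59 and 7.90 in GFP cells and 5.84 and 5.89 on day 0. In these 3 genes the GFP arrays were the highest of the 6 and the day 0 arrays lay at or below the 4F arrays, apart from Ccl20, where day 0 lay between the 4F arrays. Ptgs2 (cyclooxygenase) differed by -1.89 (adjusted p = 0.2), with replicate arrays far apart in each infection. No interferon-stimulated gene of 34 passed in limma in either direction (median -0.32), with 1 lower at an unadjusted p under 0.05, 0 without the replicate term and 5 lower in the fit of the 4 arrays alone. The RNA sensor Ddx58 differed by -0.87 (adjusted p = 0.26). Among complement genes 4 of 17 were lower and 1 higher, but 2 were lower without 4F replicate 1, without 4F replicate 2 or without GFP replicate 1. The complement component C2 fell by 0.92.

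Of 48 DNA replication genes measured, 24 were higher and 0 lower in 4F cells (median 0.54; 0 lower at an unadjusted p under 0.05 and without the replicate term). The number called varied with the fit while the sign did not: 15 were higher without the replicate term, 13 without 4F replicate 1, 8 without 4F replicate 2 and 7 without GFP replicate 1. Mcm7, a subunit of the replicative helicase, had 9.90 and 9.96 in 4F cells, against 9.11 and 9.05 in GFP cells and 9.60 and 9.51 on day 0 (difference 0.85 ± 0.14, adjusted p = 0.00079). Wdhd1, a replisome protein, had 8.44 and 8.69 in 4F cells, against 7.58 and 7.71 in GFP cells and 8.29 and 8.40 on day 0. For both, day 0 cells lay between the arms, nearer to 4F. Pola1, the catalytic subunit of DNA polymerase alpha, had 8.48 and 8.38 in 4F cells, against 7.47 and 7.43 in GFP cells, and its call ended without 4F replicate 1 (adjusted p = 0.068), without 4F replicate 2 (0.064) and without GFP replicate 1 (0.09). Gins1 and Fen1, also of the replication fork, differed by 0.71 (adjusted p = 0.053) and 0.54 (adjusted p = 0.084). Mitosis and spindle genes had a similar median of 0.45, and 6 of 55 were higher (10.9%, against 9.77% of all genes) and 0 lower (21 higher and 0 lower at an unadjusted p under 0.05). This count depended on the fit: 24 were higher with the compared arrays alone, 21 with days 0 to 5 alone and 11 over bright rows, against 2 without the replicate term, 3 without 4F replicate 1, 1 without 4F replicate 2 and 1 without GFP replicate 1. Smc2, a condensin subunit, had 9.03 and 9.27 in 4F cells, against 8.02 and 8.26 in GFP cells, but its call ended without 4F replicate 2 (adjusted p = 0.067) and without GFP replicate 1 (0.085). The proliferation marker Mki67 had 9.58 and 9.40 in 4F cells, against 8.76 and 8.66 in GFP cells, and its 0.78 did not pass (adjusted p = 0.11).

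An E2F motif, TTTCCCGC or TTTGGCGC on either strand, stood in 13 of the 39 replication windows (33.3%), against 2.56% of all windows and 5.93% of the windows of all genes called higher. It also stood in 6 of 21 windows of the cyclin and CDK list (28.6%), of which 1 of 26 genes was higher. E2F factors are known activators of replication genes in S phase. The promoters of Pola1 (chrX:93632106-93632405, minus strand) and Mcm7 (chr5:138171834-138172133, minus strand) show 1 match each, in capitals, at -138 and -165 from the start. RefSeq gives Mcm7 more than 1 start, and the window of 1 of them is shown.
Pola1: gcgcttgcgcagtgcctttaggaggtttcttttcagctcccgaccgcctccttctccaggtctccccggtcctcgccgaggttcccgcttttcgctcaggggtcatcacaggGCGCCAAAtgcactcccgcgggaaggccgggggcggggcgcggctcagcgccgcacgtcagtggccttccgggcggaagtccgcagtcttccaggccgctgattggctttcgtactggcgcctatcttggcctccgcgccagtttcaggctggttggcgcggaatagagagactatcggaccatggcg
Mcm7: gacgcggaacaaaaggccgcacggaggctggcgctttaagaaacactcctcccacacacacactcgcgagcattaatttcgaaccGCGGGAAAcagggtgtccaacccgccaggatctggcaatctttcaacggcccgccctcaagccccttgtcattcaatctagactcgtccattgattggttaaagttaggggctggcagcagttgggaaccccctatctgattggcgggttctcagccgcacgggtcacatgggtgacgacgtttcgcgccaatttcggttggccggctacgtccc
Among mitosis genes, the cell cycle element TTTGAA stood in 31 of 46 windows (67.4%), against 17.3% of all windows and 16.3% of windows of genes called higher.

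Ribosome assembly in the nucleolus is a known output of c-Myc. Of 53 genes measured, 27 were higher and 0 lower in 4F cells (median 0.49; 0 lower at an unadjusted p under 0.05 and without the replicate term). The count was 17 without the replicate term, 13 without 4F replicate 1, 9 without 4F replicate 2 and 5 without GFP replicate 1. Dkc1 (dyskerin, of RNA pseudouridylation) had 9.50 and 9.68 in 4F cells and 8.41 on the 3F array, against 8.55 and 8.77 in GFP cells and 9.21 and 9.38 on day 0. Its difference was 0.93 ± 0.11 (adjusted p = 4.2e-05), and the 3F array lay with GFP cells. Polr3g, a subunit of RNA polymerase III, had 7.53 and 7.26 in 4F cells, against 5.79 and 6.26 in GFP cells. Polr1c, shared by RNA polymerases I and III, had 9.62 and 9.36 in 4F cells, against 8.78 and 8.59 in GFP cells (difference 0.81 ± 0.07, adjusted p = 3.9e-06). Both polymerase genes had every 4F array above every GFP array, as did 4475 of all 19938 genes. Npm1 (nucleophosmin) rose by 0.72, a call that ended without GFP replicate 1 (adjusted p = 0.072). Nop58, a core protein of box C/D particles, differed by 0.51 (adjusted p = 0.063). The median of this list was -0.24 for the single 3F array less the GFP mean, a value without replicates or test. The E-box CACGTG, the sequence that c-Myc binds with Max, stood in 12 of 47 nucleolar windows (25.5%), against 9.5% of all windows and 10.5% of windows of genes called higher. Lists with few or no higher genes held it as often or more so: 5 of 16 windows of the AP-1 list and 5 of 16 of the p53 list (31.2% each), and 6 of 21 of the cyclin and CDK list (28.6%). The promoter of Wdr43, a nucleolar processing factor that rose by 0.59 and was named after its value was seen, is shown with its match 17 bases after the start, in capitals (chr17:71615965-71616264, plus strand).
Wdr43: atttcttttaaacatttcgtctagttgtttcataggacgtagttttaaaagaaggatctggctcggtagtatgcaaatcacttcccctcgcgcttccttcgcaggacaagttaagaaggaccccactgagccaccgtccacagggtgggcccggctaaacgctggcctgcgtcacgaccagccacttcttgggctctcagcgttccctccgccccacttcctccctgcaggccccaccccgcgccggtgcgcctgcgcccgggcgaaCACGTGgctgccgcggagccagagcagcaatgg

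Biosynthesis and growth lists were mixed. In nucleotide and one-carbon synthesis 9 of 31 were higher and 1 lower (median 0.18), and 5 were higher without 4F replicate 2 or without GFP replicate 1. Ppat, the first enzyme of purine synthesis, had 9.91 and 10.28 in 4F cells, against 8.45 and 8.69 in GFP cells (difference 1.52 ± 0.15, adjusted p = 1.8e-05), and the folate enzymes Shmt1 and Mthfd1 rose by 0.83 and 0.74. The mitochondrial folate gene Aldh1l2 was the lower member at -1.90, with 6.20 and 6.05 in 4F cells, against 8.92 and 7.13 in GFP cells, and its call ended without GFP replicate 1 (-0.99, adjusted p = 0.22). Of 39 oxidative phosphorylation genes 12 were higher and 0 lower (0 lower at an unadjusted p under 0.05), but 2 were higher with the compared arrays alone, 3 without the replicate term, 2 without 4F replicate 1, 6 without 4F replicate 2 and 3 without GFP replicate 1. Of 26 ribosomal protein genes 8 were higher and 0 lower (0 lower at an unadjusted p under 0.05), with 1 higher with the compared arrays alone, 3 after quantile normalization, 3 without the replicate term, 3 without 4F replicate 1, 5 without 4F replicate 2 and 2 without GFP replicate 1. Glycolysis held 4 higher and 1 lower of 22, but 0 in either direction without 4F replicate 1 or without GFP replicate 1, 1 higher without 4F replicate 2 and 2 higher without GFP replicate 2. Of 27 cholesterol and fatty acid synthesis genes, 1 was higher (3.7%, against 9.77% of all genes) and 0 lower (1 lower at an unadjusted p under 0.05): Ebp, a sterol isomerase, rose by 1.13. The ATF4 amino acid response held 4 lower and 0 higher of 24 (0 higher at an unadjusted p under 0.05 and without the replicate term). Its pairs differed, with medians of -0.90 in pair 1 and 0.07 in pair 2, and GFP replicate 1 was the high array: Trib3 had 6.31 and 6.32 in 4F cells, against 8.68 and 6.45 in GFP cells. The list had 14 lower members without GFP replicate 2 and 1 without any other single array. Cebpb, a bZIP factor, fell by 1.48 ± 0.21 (adjusted p = 0.00023), with 7.62 and 7.21 in 4F cells, against 9.15 and 8.63 in GFP cells.

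Cell cycle control genes showed 1 call each way among 26 (3.85% each way, against 9.77% higher and 8.93% lower of all genes). Rb1, the retinoblastoma protein that restrains E2F factors, had 9.33 and 9.53 in 4F cells and 9.82 on the 3F array, against 6.52 and 6.87 in GFP cells and 6.54 and 6.68 on day 0. The 4F and 3F arrays lay far above the others, a rise of 2.74 ± 0.12 between 4F and GFP cells (adjusted p = 1.2e-08). Cdkn2b, an inhibitor of CDK4 and CDK6, had 7.85 and 8.34 in 4F cells, against 8.89 and 9.57 in GFP cells, a fall of 1.14 ± 0.13. In the list of p53 and senescence genes 2 of 22 were higher and 2 lower, but 0 were lower without 4F replicate 1 or without GFP replicate 1. With no array left out, this was 9.09% each way, near the 9.77% higher and 8.93% lower of all genes. Perp, a p53 target and desmosome protein, rose by 1.87 ± 0.23, with 8.86 and 9.65 in 4F cells, against 6.89 and 7.88 in GFP cells. Perp is also counted in the epithelial list below. The nuclear lamina gene Lmnb1 rose by 0.77, a call that ended without the replicate term, without 4F replicate 2 (adjusted p = 0.075) and without GFP replicate 1 (0.067).

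Chromatin regulators held 19 higher and 1 lower of 41 (median 0.36), with 9 higher without GFP replicate 1. Jarid2, a partner of the Polycomb complex PRC2, had 9.24 and 8.04 in 4F cells, against 6.89 and 7.12 in GFP cells (difference 1.64 ± 0.30, adjusted p = 0.0017). Suz12, a core subunit of PRC2, rose by 0.93, the methylcytosine oxidase Tet2 by 0.99 and the chromatin protein Hmgb2 by 1.36. Hmga2, an embryonic chromatin protein, was the lower member, with 7.73 and 8.42 in 4F cells, against 8.48 and 9.37 in GFP cells and 10.58 and 10.48 on day 0. Both arms lay below the day 0 level of Hmga2, and its call between arms ended without 4F replicate 1 (adjusted p = 0.21) and without GFP replicate 2 (0.18).

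Pluripotency genes held 12 higher and 2 lower of 47 (25.5% and 4.26%), with a median of 0.01. Without 4F replicate 1 there were 7 higher. Gdf3, a TGF-beta family ligand of pluripotent cells, had 7.03 and 7.29 in 4F cells and 6.49 on the 3F array, against 5.39 and 5.34 in GFP cells (difference 1.80 ± 0.18, adjusted p = 2e-05). L1td1, an RNA-binding protein of pluripotent cells, had 6.63 and 7.76 in 4F cells, against 5.55 and 5.71 in GFP cells. Upp1, a uridine phosphorylase, rose by 1.68 and Rif1, a telomere and replication timing protein, by 1.41. Klf2 fell by 0.92 ± 0.18 (adjusted p = 0.0025), with 6.99 and 7.21 in 4F cells, against 7.87 and 8.17 in GFP cells. Nr0b1 and Zfp42, of the same list, did not pass and lay below the array medians of 6.04 to 6.09 on all 4 arrays, with 4.99 and 5.56 for Nr0b1 in 4F cells, against 4.75 and 4.83 in GFP cells (adjusted p = 0.52), and 5.29 and 4.72 for Zfp42 in 4F cells, against 6.01 and 4.94 in GFP cells (adjusted p = 0.38). Nanog, a core factor of the pluripotent state named after its value was seen, had 5.94 and 5.73 in 4F cells, against 5.98 and 5.88 in GFP cells.

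Epithelial adhesion and junction genes held 10 higher and 2 lower of 48 (20.8% and 4.17%), with a median of -0.01. The count was 5 without 4F replicate 1 and 4 without GFP replicate 1. Dsp (desmoplakin) had 7.84 and 7.34 in 4F cells, against 5.62 and 5.85 in GFP cells (difference 1.85 ± 0.20, adjusted p = 2.5e-05). Cxadr, a tight junction adhesion molecule, had 8.02 and 8.15 in 4F cells, against 6.87 and 6.33 in GFP cells. Cdh3 (P-cadherin) was opposite, with 6.10 and 5.88 in 4F cells, against 8.18 and 8.38 in GFP cells (difference -2.28 ± 0.26, adjusted p = 4.2e-05). Krt8, a keratin of simple epithelia, had 8.34 and 7.29 in 4F cells, against 7.05 and 6.45 in GFP cells, and did not pass (adjusted p = 0.06). Of 18 surface markers used to follow reprogramming 4 were higher and 5 lower, with 3 lower without 4F replicate 2 or without GFP replicate 1 and 8 with days 0 to 5 alone. Prom1 (CD133) rose by 0.99, Itgb1 fell by 0.70 and Sdc1 fell by 0.91. Nt5e and Thy1, given above as mesenchymal regulators, are also counted in this list. The alkaline phosphatase Alpl had 6.98 and 6.89 in 4F cells, against 6.13 and 5.96 in GFP cells, but its call ended without 4F replicate 1 (adjusted p = 0.086) and without GFP replicate 2 (0.066).

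Iron and retinoid handling held 3 higher and 11 lower of 27, and 7 were lower without 4F replicate 1 or without GFP replicate 1. Tfrc, the transferrin receptor that takes up iron, had 9.68 and 9.67 in 4F cells and 7.82 on the 3F array, against 7.58 and 7.75 in GFP cells and 9.79 and 9.93 on day 0. The 4F arrays lay near the day 0 level and the GFP and 3F arrays well below it, a difference between 4F and GFP of 2.01 ± 0.34 (adjusted p = 0.0009). Rdh10, which makes retinal, had 9.51 and 10.05 in 4F cells and 10.86 on the 3F array, against 8.23 and 8.22 in GFP cells. Crabp1, a retinoic acid binding protein, had 9.75 and 9.09 in 4F cells, against 11.32 and 11.27 in GFP cells (difference -1.88 ± 0.27, adjusted p = 0.00026). The metalloreductases Steap1 and Steap2 fell by 1.72 and 1.61. Of 24 adipogenic and lipid genes 2 were higher and 5 lower (3 lower without GFP replicate 1, 10 with days 0 to 5 alone), among them Angptl4, an inhibitor of lipoprotein lipase, with 8.93 and 8.36 in 4F cells, against 10.66 and 9.70 in GFP cells and 7.13 and 7.20 on day 0. Heat shock and protein folding genes held 2 higher and 9 lower of 28, but 1 and 2 without the replicate term, 4 lower with the compared arrays alone, 1 lower without 4F replicate 1, 2 without GFP replicate 1 and 5 without GFP replicate 2. Xbp1, a factor of the unfolded protein response, fell by 0.93 ± 0.13 and Hspb8, a small heat shock protein, rose by 1.14 ± 0.16. Of 30 Hox genes 2 were lower (6.67%, against 8.93% of all genes) and 0 higher, and none passed without the replicate term. At an unadjusted limma p under 0.05, 3 Hox genes were higher and 5 lower.

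Markers of other cell types were read in the same way. The endothelial receptor Tek (Tie2) had 8.51 and 8.93 in 4F cells and 8.50 on the 3F array, against 5.65 and 5.63 in GFP cells (difference 3.08 ± 0.26, adjusted p = 3.5e-06), while Flt1 fell by 1.56. Of the 12 endothelial markers 1 was higher and 2 lower (1 higher and 6 lower at an unadjusted p under 0.05; median -0.16), and 1 was lower without the replicate term or without any 1 of the 4 arrays. With Tek among them they averaged 5.92 and 5.97 on the 4F arrays and 5.92 and 5.97 on the GFP arrays. The neural list held 3 higher and 1 lower of 15 (median 0.32; 5 higher and 1 lower at an unadjusted p under 0.05; 0 lower without any 1 of the 4 arrays), with averages of 7.03 and 7.14 in 4F cells, against 6.43 and 6.58 in GFP cells. These averages include the large differences of Bex1 and Stmn2, while the list's median difference was 0.09 in pair 1 and 0.29 in pair 2. Bex1 had 9.19 and 7.98 in 4F cells, against 4.83 and 4.79 in GFP cells. Stmn2, a neuronal microtubule protein, had 10.56 and 10.77 in 4F cells, against 6.26 and 8.94 in GFP cells, with GFP replicates far apart, and Nefl rose by 1.20. Among 5 red blood cell markers Hbb-y alone was called, and Alas2, Klf1, Epb42 and Hbb-bh1 (the last pair named after their values were seen) differed by -0.06, -0.16, -0.03 and 0.00. Macrophage markers averaged 5.51 and 5.55 in 4F cells, against 5.60 and 5.64 in GFP cells. Csf1r, the macrophage growth factor receptor, had 5.46 and 5.38 in 4F cells, against 6.01 and 5.57 in GFP cells. The leukocyte marker Ptprc had 4.84 and 4.94 in 4F cells, against 5.38 and 5.05 in GFP cells. All these values lay below the array medians of 6.04 to 6.09. Laptm5, of the same list, rose by 1.44, a call that ended without 4F replicate 2 (adjusted p = 0.066) and without GFP replicate 2 (0.054). Among markers of other lineages, 1 of 13 keratinocyte genes was higher and 0 lower (2 lower at an unadjusted p under 0.05; 0 higher without 4F replicate 2), and 0 of 12 skeletal muscle genes were higher and 1 lower in limma (0 higher at an unadjusted p under 0.05). The keratinocyte share higher was 7.69%, against 9.77% of all genes, and the skeletal muscle share lower was 8.33%, against 8.93% of all genes. Of 13 trophectoderm and primitive endoderm genes 0 were higher and 2 lower (2 higher at an unadjusted p under 0.05), and of 9 chondrocyte and bone genes 1 was higher and 2 lower in limma (1 lower without the replicate term). The other counts of these 4 lists were the same without the replicate term. Of the trophectoderm and endoderm genes 0 were lower without 4F replicate 2 or without GFP replicate 1, and of the chondrocyte and bone genes 0 passed in either direction without 4F replicate 1 and 0 were lower without 4F replicate 2 or GFP replicate 1. Pdgfra, at -2.21, was 1 of the lower trophectoderm and endoderm genes. It is also counted among the mesenchymal regulators and the fibroblast markers. No germ cell marker of 10 passed in limma (1 lower at an unadjusted p under 0.05, 0 called without the replicate term). Of 14 fibroblast markers 11 were lower and 0 higher (median -1.54; 0 higher at an unadjusted p under 0.05 and without the replicate term). All 14 are also members of the collagen, proteoglycan or mesenchymal lists, so this count repeats genes already counted there. Whether cells of another kind took part in any of these differences was not tested.

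Placing the arms against day 0 uses the same 2 uninfected arrays for both, so the sets of values are not independent of each other. On day 3, 2703 genes (13.6%) differed from day 0 in 4F cells, 1430 higher (7.17%) and 1273 lower (6.38%), and 586 (2.94%) in GFP cells, 377 higher (1.89%) and 209 lower (1.05%). The GFP count is the less steady of the pair. Over rows it was 634 (2.91%), against 46 without GFP replicate 1, 1477 without GFP replicate 2, 37 without day 0 replicate 1, 289 without day 0 replicate 2 and 4 in a fit of these groups' arrays alone. The 4F row count of 2893 (13.3%) was 1447 without 4F replicate 1, 1427 without day 0 replicate 1 and 1793 without the replicate term. Genes called higher in 4F than in GFP cells had a median difference from day 0 of 0.43 in 4F cells and -0.16 in GFP cells. Genes called lower had medians of -0.40 in 4F cells and 0.22 in GFP cells. Both sets were chosen on the difference between the arms, which fixes the order of these medians. For 898 of the 1947 higher genes, neither a rise in 4F cells nor a fall in GFP cells from day 0 was called. For 754 of the 1781 lower genes, neither a fall in 4F cells nor a rise in GFP cells was called. Collagens had medians of -0.38 in 4F cells and 0.78 in GFP cells, chemokines and acute-phase genes -0.10 and 0.49, and contractile genes -0.96 and -0.01. Replication genes had medians of 0.08 in 4F cells and -0.42 in GFP cells, and nucleolar genes 0.04 and -0.41. By these medians, collagen signal lay below the start in 4F cells and above it in GFP cells. Replication and nucleolar signal lay near the start in 4F cells and below it in GFP cells.

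**Figure D4:**
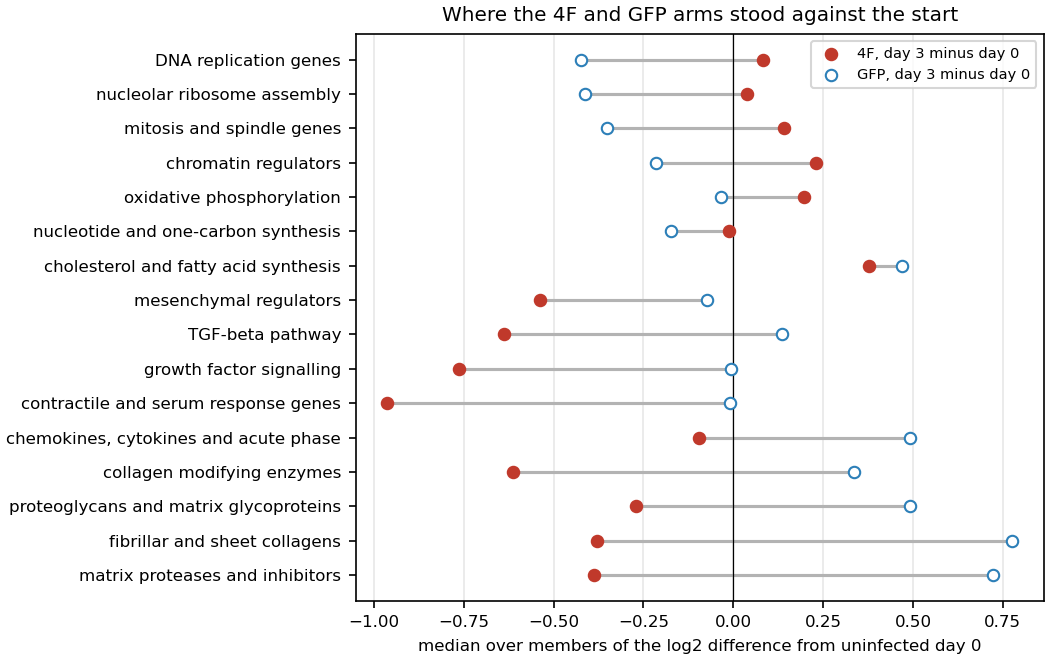
Median difference from day 0 (horizontal axis, log2) of selected gene lists on day 3, with 1 point for 4F cells and 1 for GFP cells on the same day 0 arrays. Collagens lie at -0.38 for 4F and 0.78 for GFP, contractile genes at -0.96 and -0.01, and replication genes at 0.08 and -0.42.

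The same comparison on day 1 called 910 genes (4.56%; 3.3% higher and 1.27% lower) and on day 5 called 5631 (28.2%; 14.2% higher and 14% lower). Of the 1947 genes higher on day 3, 394 (20.2%) were also higher on day 1, which is 60% of the 657 of day 1, and 1409 (72.4%) on day 5, which is 49.7% of the 2835 of day 5. Of the 1781 genes lower on day 3, 186 (10.4%) were also lower on day 1 (73.5% of 253) and 1368 (76.8%) on day 5 (48.9% of 2796). These days use other arrays, although all of them share 1 estimate of the spread. The median of the replication list was 0.59 on day 1, 0.54 on day 3 and 1.22 on day 5, with 17, 24 and 47 genes higher. The nucleolar median was 0.75, 0.49 and 0.86 on the same days, with 48, 27 and 50 genes higher. Collagens had medians of -0.41, -1.28 and -1.42, with 1, 15 and 17 genes lower, and proteoglycans and glycoproteins had -0.37, -1.22 and -2.06, with 0, 26 and 30 lower (limma; on day 1, 0 proteoglycan genes were called in either direction). The mitosis, oxidative phosphorylation and ribosomal protein lists had no gene higher on day 1 in limma, with medians of 0.48, 0.07 and 0.01. Nucleotide and one-carbon synthesis had 11 of 31 higher and 0 lower on day 1 (median 0.38). The cyclin and CDK list had 4 higher and 1 lower, glycolysis 1 higher and 0 lower, and the ATF4 list 1 higher and 1 lower. The test of the change from day 1 to day 3 passed for 0 of the 20 collagens and 8 of the 38 proteoglycan and glycoprotein genes. It passed for 0 genes of the replication list and 0 of the nucleolar list. From day 3 to day 5 the test of the change passed for 0 genes in each of these lists, so their differing counts per day are not tested changes.

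**Figure D5:**
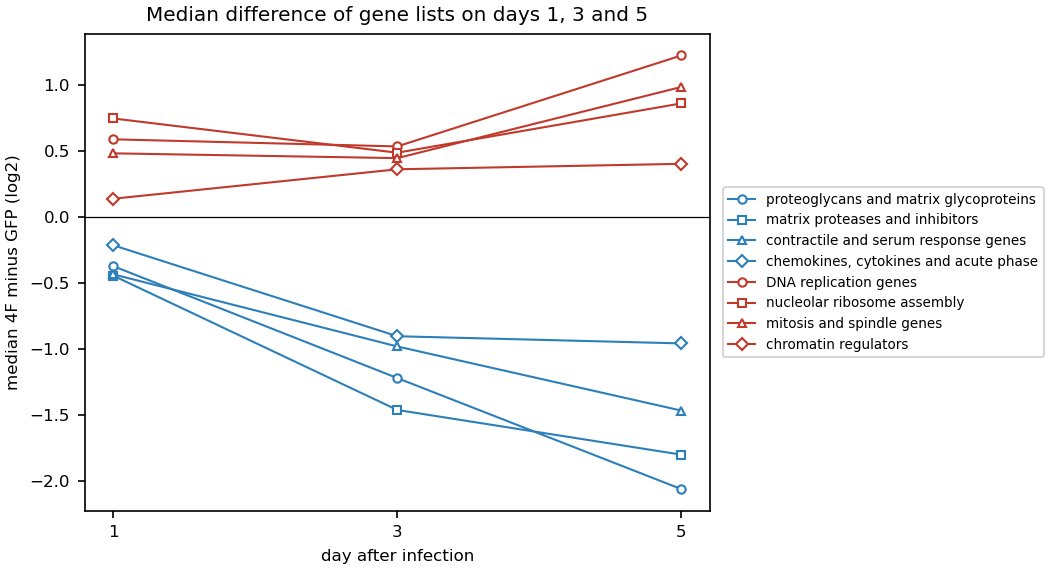
Median difference between 4F and GFP cells (vertical axis, log2) of selected gene lists on days 1, 3 and 5 (horizontal axis). Proteoglycans and glycoproteins descend through -0.37, -1.22 and -2.06, and replication genes stand at 0.59, 0.54 and 1.22.

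Whether a difference itself changed between days was tested as a contrast of differences. From day 1 to day 3 it changed in 265 genes (1.33%), up in 150 (0.752%) and down in 115 (0.577%). Over rows this was 278 (1.28%), and the count was between 64 and 157 without any 1 of the 4 arrays of day 1, without 4F replicate 1 of day 3 or without GFP replicate 1 of day 3, against 286 and 391 without the other day 3 arrays and 102 without the replicate term. Akr1c18 gained 4.13 ± 0.44 (adjusted p = 0.00043), with 7.40 and 8.90 in 4F cells, against 5.19 and 5.60 in GFP cells on day 1. Necab1 gained 3.52, Hbb-y 3.45, Sbspon 3.34, Kcnip4 (a potassium channel partner) 3.30 and Bex1 3.27, from day 1 differences between -0.19 and 0.51. Tmem229b and Tek were already 3.11 and 2.26 higher in 4F cells on day 1, and their changes of 0.75 (adjusted p = 0.35) and 0.82 (adjusted p = 0.36) did not pass. On the lower side Ltbp2 changed by -2.70, the carboxypeptidase-like Aebp1 by -2.37, the protease inhibitors Pi15 and Tfpi2 by -2.19 and -2.11, Mfap5 by -2.20 and Mmp9 by -2.12. For Mmp9 the 4F arrays stayed at 5.71 and 5.54 on day 1 and 5.65 and 5.64 on day 3, beside GFP arrays of 5.76 and 5.62 on day 1 and 8.66 and 7.0 on day 3. From day 3 to day 5, 3 genes (0.015%) passed in limma: Slc38a5, an amino acid transporter, by 1.73, the histone gene H4f16 by 0.86 (these up, 0.01%) and Myof (myoferlin) by -1.34 (down, 0.00502%). That count of 4 rows (0.0184%) was 0 without the replicate term or without either 4F array of day 5, and 34 without GFP replicate 1 of day 3.

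A further 46 genes (0.231%) had a day 3 difference that stood apart from the mean of days 1 and 5, 29 above it (0.145%) and 17 below (0.0853%). Rows numbered 51 (0.234%), and any 1 array left out brought them to between 5 and 31. Gsta4, a glutathione transferase, had 10.56 and 11.18 in 4F cells, against 8.91 and 9.84 in GFP cells on day 3, while its differences were 0.35 on day 1 and -0.20 on day 5, neither of which passed. Ccl20 differed by -0.21, -2.30 and -0.98 on days 1, 3 and 5. Vegfc, a lymphatic growth factor, differed by -0.44, -1.93 and -1.67, and Sesn3 (sestrin) by -0.56, 0.79 and -0.99, the only one of these 4 genes whose day 3 difference had the opposite sign to both neighbours. The call of Sesn3 on day 3 ended without the replicate term (adjusted p = 0.054), without 4F replicate 1 (0.24) and without GFP replicate 2 (0.17).

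The single 3F array, which lacks c-Myc, has no replicate and was not tested, and its values are given beside the others. Its signal was close to 4F cells for Akr1c18, Hbb-y and Tek and above both 4F arrays for Sostdc1 (11.52) and Aldh3a1 (10.34). It was lower than both 4F arrays for Bex1 (6.51) and Fmo1 (6.74). Tfrc (7.82) lay near the GFP arrays and Dkc1 (8.41) below both of them. The 3F array less the GFP mean had medians of -0.97 for collagens, -0.45 for proteoglycans and glycoproteins, -0.31 for contractile genes, 0.09 for replication genes and -0.24 for nucleolar genes. The corresponding 4F medians were -1.28, -1.22, -0.98, 0.54 and 0.49. The GFP mean joins both RNA amounts, and against GFP replicate 2 alone, labelled from the same 300 ng, the 3F medians were -0.47, -0.31, -0.47, 0.04 and -0.33. Those of 4F replicate 2 less GFP replicate 2 were -0.83, -1.06, -0.87, 0.49 and 0.38. In both versions the 3F median was the higher of the pair for matrix and contractile lists and the lower for replication and nucleolar lists, in 1 array. The 3F array is 1 of 7 without a replicate number, and no 4F or GFP array of day 3 is among these. An effect of that set of arrays therefore cannot be told apart from the lack of c-Myc, also where the RNA amount is the same.

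Rows that carry no gene symbol or several were fitted in the same way, with p adjusted over all 28853 rows, and are not named. Of 7064 such rows, 427 were higher (6.04%) and 182 lower (2.58%) in 4F cells, 8.62% in all, against 18.6% of rows with 1 symbol.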

How the data were processed

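The authors deposited log2 signals per probe set of 31 Affymetrix arrays. No label names how they were normalized, so a scaling step could have shifted all differences alike. Of 28853 rows, 21789 carried 1 gene symbol from the platform annotation, 1621 several and 5443 none. Deposited values ran from 4.27 to 14.33, and the medians of the day 3 arrays from 6.04 to 6.09.

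The deposited log2 values were fitted as they are with limma 3.58.1 (R 4.3.3): a mean per group plus a term for replicate number, over the 24 arrays with a number, with empirical Bayes and Benjamini-Hochberg adjustment over the 21789 rows. The fit had 11 residual degrees of freedom and was tested on simulated data. Numbers pair arrays because replicate 1 was labelled from 120 ng and replicate 2 from 300 ng of RNA, per the labels' protocols. Same-numbered arrays deviated together (r = 0.379 for day 3, and over 0.1 in 65 of 66 pairs of groups). The text names each delivered factor, the 12 rises and 12 falls of greatest size, the leading genes of each list with 2 that did not pass, and the leading genes of each contrast of days. The members and lists were chosen with earlier results of these data known. Alternatives were no replicate term, the compared arrays alone, 1 row per gene, a filter on dim rows, quantile normalization, median centring, a robust fit, and each replicate left out. A fit of days 0 to 5 alone was chosen after seeing the data. Promoter windows came from RefSeq. Depth has no meaning for arrays, and the number of arrays limits the precision.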

Additional observations from a re-analysis of the deposited data

Results flagged for a closer look

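For 265 genes the difference between 4F and GFP cells on day 3 differed from that on day 1, by the test of the change itself (limma, log2 scale). The 12 genes given here had the largest changes in each direction. The difference was larger by 4.13 for Akr1c18, 3.52 for Necab1, 3.45 for Hbb-y, 3.34 for Sbspon, 3.30 for Kcnip4 and 3.27 for Bex1. It changed by -2.70 for Ltbp2, -2.37 for Aebp1, -2.20 for Mfap5, -2.19 for Pi15, -2.12 for Mmp9 and -2.11 for Tfpi2. For 3 genes the difference on day 5 differed from that on day 3, by 1.73 for Slc38a5, 0.86 for H4f16 and -1.34 for Myof.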

How the results depend on the processing

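Counts of rows with 1 symbol moved most. With the replicate block 4051 rows were called on day 3, against 2560 without it, and leaving out 1 array gave 1921 to 4150. For the change of the difference from day 1 to day 3 (278 rows), the count was 102 without the block and 440 with days 0 to 5 alone, and 64 to 391 with 1 array left out. For the change from day 3 to day 5 (4 rows), it was 0 without the block, 0 with the compared arrays alone, 49 with 1 row per gene, 66 with bright rows, 21 in the robust fit and 70 with days 0 to 5 alone, and 0 to 34 with 1 array left out. For day 3 less the mean of days 1 and 5 (51 rows), it was 4 without the block, 9 with the compared arrays alone and 26 after quantile normalization, and 5 to 31 with 1 array left out. Against day 0, 4F cells (2893 rows) had 1793 without the block, 1780 with the compared arrays alone and 1427 to 2230 with 1 array left out. GFP cells (634 rows) had 222 without the block, 4 with the compared arrays alone and 37 to 1477 with 1 array left out. The ATF4 list's median ranged from -0.85 without GFP replicate 2 to 0.041 without GFP replicate 1, and the adipogenic list's to 0.10 over bright rows. Of 208 named genes past the threshold, 126 stayed past it in all 12 alternatives, 169 without the block, and 0 turned direction. Causes were not tested beyond the smaller number of arrays or rows in each alternative.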
